A study of Mus musculus with 22 samples.

Results

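Epithelial chemokines are the secreted signals with which a tubule lining calls in leukocytes, and 9 such genes were followed here in mouse collecting duct cells: Cxcl1, Cxcl2, Cxcl5, Cxcl10, Cxcl12, Cxcl16, Ccl2, Ccl20 and Cx3cl1. They were found by gene name, as 9 of the 55415 lines of the deposited expression table, from a list drawn up with earlier results of these data known. The cells were mpkCCD, an immortalised line from the mouse cortical collecting duct, the tubule segment where vasopressin sets water reabsorption through the water channel aquaporin-2 (Aqp2). RNA-seq was deposited for 22 libraries in 10 groups. Unsorted WT cells were given no dDAVP (3 libraries) or dDAVP (3 libraries), the vasopressin analogue desmopressin, which stimulates V2 receptors. The GFP reporter lines C1, C11, C43 and C50 are each a single clone, all received dDAVP, and each gave 2 libraries of GFP-negative and 2 of GFP-positive cells. The series title ties the reporter to variation of Aqp2 between cells, but the promoter that drives GFP is not given in the sources used here. Every group, the untreated one included, was kept in medium with 50 nM dexamethasone, a glucocorticoid. The protocols name dDAVP at 0.1 or 1 nM for 24 or 48 h without tying a dose or time to a library, and no clone library without dDAVP is among the groups.

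Levels are the authors' TPM, an abundance scaled to transcript length and to each library's total, so that levels of different genes can be set side by side but the sequencing depth is unknown. Changes are differences of mean log2(TPM + 1), which understates the change of low genes, with their standard error (SE). A gene was called changed at a Benjamini-Hochberg adjusted p under 0.05 in limma, adjusted over all genes whose mean in the compared libraries reached 1 TPM. Nothing in the labels says that replicates came from separate cultures, so the p-values measure only the spread between these libraries. The labels were checked on Aqp2, which was 5.36 ± 0.078 (SE) log2 units higher with dDAVP (limma adjusted p = 1.7e-07), and on Aqp2 and GFP, which were 3.11 ± 0.318 and 6.73 ± 0.169 higher in GFP-positive cells (limma adjusted p = 4.74e-06 and 4.85e-12). All 5 epithelial markers and 9 of 10 principal cell markers had a mean of at least 1 TPM. No fibroblast marker of 7 did, with a summed level of at most 1.69 TPM. Endothelial markers summed to at most 4.45 TPM. Of 8 macrophage and leukocyte markers only Cd68 and Csf1r reached that mean. The number of genes above 0 TPM split the libraries into 10 with 17177 to 20250 and 12 with 23135 to 31292, and 4 GFP-negative and 4 GFP-positive libraries were on the lower side. The first GFP-negative library of C50 stood apart: ribosomal-protein transcripts made up 7.81% of its TPM against 3.64% to 5.81% in the other 21.

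Chemokines are small proteins that steer leukocytes through G-protein-coupled receptors. Cxcl1, Cxcl2 and Cxcl5 act on Cxcr2 and draw neutrophils. Cxcl10 acts on Cxcr3 of T and NK cells, Ccl20 on Ccr6, Ccl2 on Ccr2 of monocytes and Cxcl12 on Cxcr4. Cxcl16 and Cx3cl1 are made as membrane-anchored proteins, bind Cxcr6 and Cx3cr1, and become soluble when the proteases Adam10 or Adam17 cut them. Most of these genes are induced through NF-kB, Cxcl10 also through interferon, while glucocorticoids are known to restrain many of them.

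RefSeq promoter sequence (build GRCm38.p6) matched 6 of the 9 genes: Cxcl1, Cxcl2, Cxcl10, Cxcl12, Ccl20 and Cx3cl1. The 220 bases from position -250 to -31 of the start site were searched on both strands for the NF-kB consensus (the kappaB site), for the CRE half-site TGACG, the core of a cAMP response element, and for an interferon-type element (GAAA, any 2 bases, GAAA). The 4 windows below hold a kappaB match and belong to genes described in the comparisons that follow; capitals mark all matches, which overlap where both strands of a kappaB match are read.

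Cxcl1: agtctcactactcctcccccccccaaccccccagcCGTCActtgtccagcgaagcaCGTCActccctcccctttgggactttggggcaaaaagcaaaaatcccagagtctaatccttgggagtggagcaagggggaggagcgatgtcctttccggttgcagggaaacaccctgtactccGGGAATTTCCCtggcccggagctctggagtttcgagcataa

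Cxcl2: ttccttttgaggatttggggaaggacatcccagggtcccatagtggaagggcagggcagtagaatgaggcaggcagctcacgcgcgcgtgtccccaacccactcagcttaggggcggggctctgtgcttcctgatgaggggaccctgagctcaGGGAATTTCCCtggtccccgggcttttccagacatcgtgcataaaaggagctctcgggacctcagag

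Cxcl10: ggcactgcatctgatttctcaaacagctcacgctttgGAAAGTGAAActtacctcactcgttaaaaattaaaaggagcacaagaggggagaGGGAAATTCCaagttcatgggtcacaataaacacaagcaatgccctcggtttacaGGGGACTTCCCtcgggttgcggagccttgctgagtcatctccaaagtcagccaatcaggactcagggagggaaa

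Ccl20: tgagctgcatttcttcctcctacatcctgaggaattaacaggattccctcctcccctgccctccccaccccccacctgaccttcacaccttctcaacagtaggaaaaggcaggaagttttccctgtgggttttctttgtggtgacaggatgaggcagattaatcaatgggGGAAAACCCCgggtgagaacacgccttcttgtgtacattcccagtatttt

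The windows lie at chr5:90890995-90891214 (plus strand) for Cxcl1, chr5:90903649-90903868 (plus) for Cxcl2, chr5:92348920-92349139 (minus) for Cxcl10 and chr1:83116516-83116735 (plus) for Ccl20. Cxcl1 and Cxcl2 carry the same kappaB letters, GGGAATTTCC, at -71 to -62 and at -97 to -88. Cxcl10 holds kappaB matches from -159 to -150 and from -104 to -94, and the Ccl20 match at -80 to -71 reads on the minus strand. A kappaB match occurs in 6.34% of 32851 promoter windows of this length. The CRE half-site occurs at 2 places in Cxcl1, starting at -215 and -194, and once in Cxcl12, against 14.8% of all windows with at least 1. The interferon-type element occurs only in the Cxcl10 window of the 6, as GAAAGTGAAA at -213 to -204, against 2.63% of all windows. A match describes letters and says nothing about whether a factor binds there.

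The 9 genes covered a wide range of levels. Cxcl16 was the most abundant, from 83.6 to 191 TPM over the 22 libraries, followed by Cxcl1 from 36.4 to 100.8 and Cx3cl1 from 19.5 to 71.6. Cxcl10 ranged from 2.7 to 43.2 TPM and Cxcl2 from 1.57 to 31.6. Cxcl5 and Ccl20 were near the limit of 1 TPM in many libraries, each at or above it in 12 of 22, yet reached 23.8 and 14.0 TPM. Cxcl12 and Ccl2 stayed at or below 0.51 and 0.26 TPM and were listed at 0 in 10 and 11 libraries. Both failed the filter on low values in every comparison, so the tests concern 7 of the 9 genes. The spread over groups differed as widely. The highest group mean was 56.1 times the lowest for Cxcl5 and 40.4 times for Ccl20, but 2.48 times for Cxcl1, 2.14 times for Cxcl16 and 1.66 times for Cx3cl1. For Cxcl5 and Ccl20 the lowest group was GFP-positive C43, where 1 of 2 libraries is listed at 0, and without that library the ratios were 46.1 and 34.1.

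**Figure D1:**
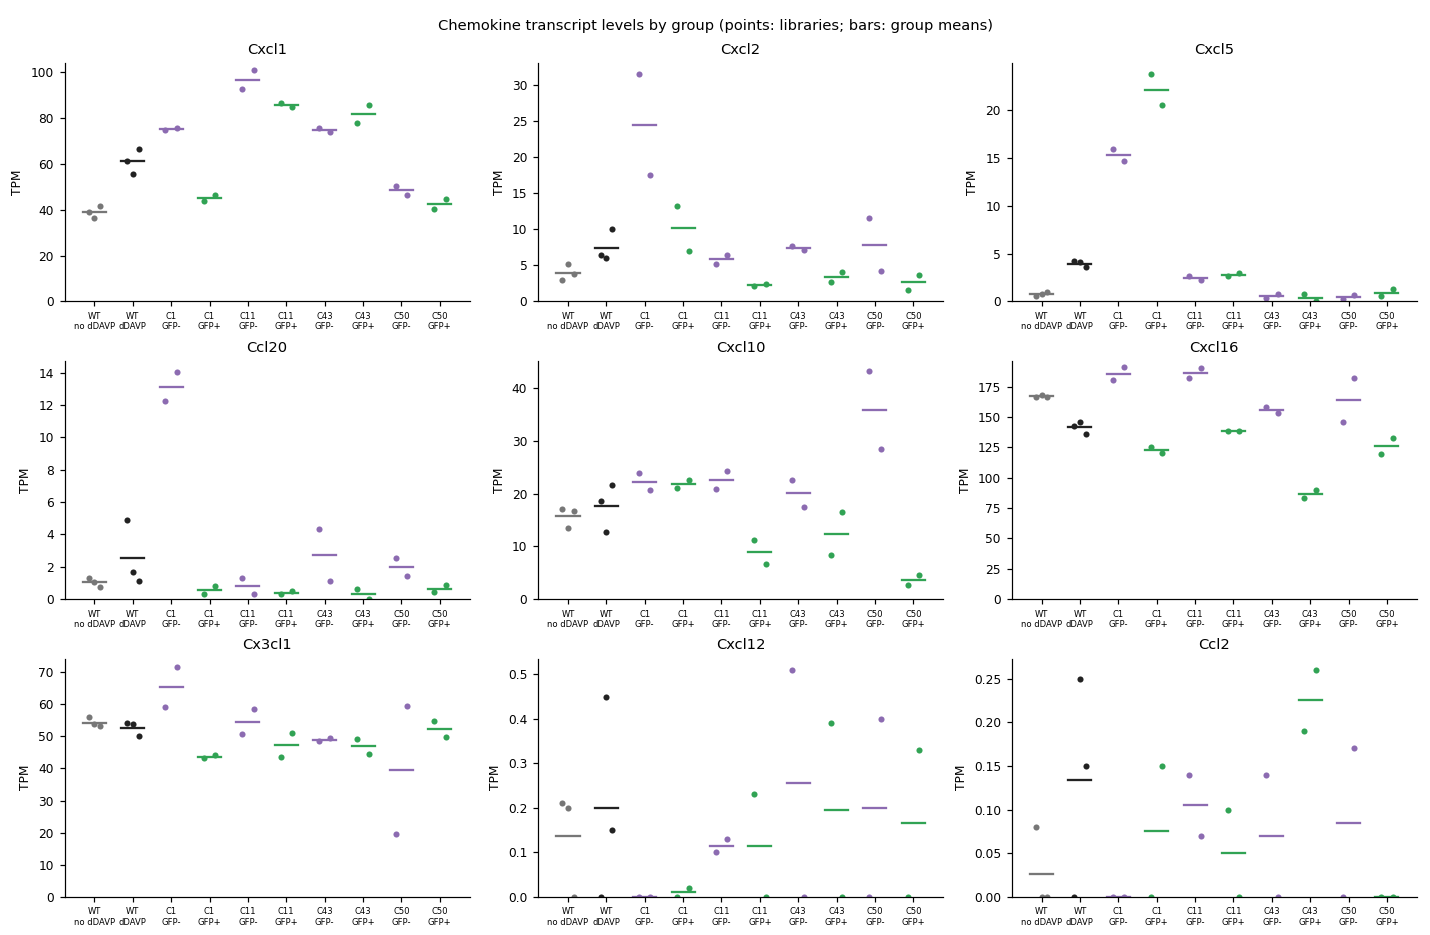
TPM (linear axes from 0, a separate scale per gene) of the 9 chemokines in the 10 groups; points are libraries and bars are group means. Cxcl16 lies lower in GFP-positive than in GFP-negative cells of every clone, Cxcl5 and Ccl20 stand out in clone C1, and Cxcl12 and Ccl2 stay below 1 TPM throughout.

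The first comparison asks what dDAVP did in WT cells. Cxcl5 averaged 0.78 TPM without and 3.94 TPM with dDAVP, so it passed the filter on low values only through the treated group and had to differ; it is given as values, without a test. Of the other 6 tested members 1, Cxcl1, rose, and the other 5 did not pass the test. Among all 13494 tested genes 8.88% were called in either direction, 2.37% higher and 6.51% lower. The median change of the 6 members was 0.39, while the median of all tested genes was -0.16. Median-ratio scaling brought that overall median to -0.00039 and the share of calls that were higher from 26.7% to 59.6% (53.9% after quantile normalization), with Cxcl1 called higher under both scalings.

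The reporter lines pose another question, what set GFP-positive cells apart from GFP-negative cells of their own clone. Ccl20 averaged 4.67 TPM over the GFP-negative and 0.48 TPM over the GFP-positive libraries, so it passed the filter on low values only through the negative group and had to differ; its fraction values are given without a test. Of the other 6 tested members Cxcl2, Cxcl10 and Cxcl16 fell, and none rose. Among all 13113 tested genes 35.3% were called, 12.1% higher and 23.2% lower. The median change of the 6 members was -0.40 against -0.063 for all tested genes. Under median-ratio scaling 50.9% and after quantile normalization 50.1% of all calls were higher, against 34.2% as deposited, and the same 3 members were called lower in both. None of the 3 was called in the 8 libraries with fewer genes detected (limma adjusted p from 0.1004 to 0.397), and with clone means as replicates Cxcl10 was not (0.0889). In bulk RNA, fewer expressing cells and less RNA per cell cannot be told apart.

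**Figure D2:**
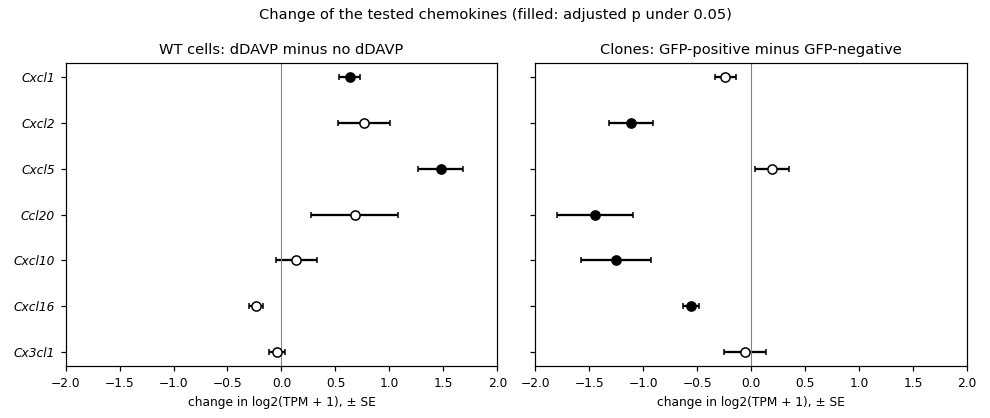
Change of the 7 tested chemokines in log2(TPM + 1) with its SE, for dDAVP in WT cells (left) and for GFP-positive against GFP-negative cells over the 4 clones (right); filled points passed an adjusted p under 0.05. Cxcl1 and Cxcl5 are the filled points on the left, Cxcl2, Cxcl10, Cxcl16 and Ccl20 those on the right, where Cxcl5 (left) and Ccl20 (right) had to differ through the filter on low values.

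Cxcl1, Cxcl2 and Cxcl5, the neutrophil attractants, sit in 1 cluster on chromosome 5. In the GENCODE annotation of GRCm38, Cxcl5 lies at chr5:90759360-90761624, Cxcl1 at chr5:90891241-90893115 and Cxcl2 at chr5:90903871-90905938, all on the plus strand. The cluster from Cxcl5 to Cxcl2 spans 146579 bp and holds 7 protein-coding chemokine genes, with Ppbp, Pf4, Cxcl3 and Cxcl15 between them. Its members did not share 1 pattern, as the following values show.

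Cxcl1 (ENSMUSG00000029380) measured 39.2, 36.4 and 41.5 TPM in WT cells without dDAVP. With dDAVP it measured 61.1, 55.7 and 66.6 TPM. All 3 treated libraries were above all 3 untreated ones, a separation without overlap that 35.8% of tested genes showed in 1 direction or the other. The rise was 0.63 ± 0.095 (SE) log2 units (limma adjusted p = 0.0112). It did not pass without the second untreated library (limma adjusted p = 0.0508), without the third treated library (0.0539) or in the 4 libraries with more genes detected (0.118). Nor did it pass with the replicate number as a block, as given in the part on processing.

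In GFP-negative cells Cxcl1 measured 75.0 and 75.9 TPM in C1, 92.8 and 100.8 in C11, 75.7 and 73.9 in C43, and 50.3 and 46.6 in C50. In GFP-positive cells it measured 43.9 and 46.5 TPM in C1, 86.7 and 85.1 in C11, 77.8 and 85.6 in C43, and 40.4 and 44.6 in C50. The positive libraries were lower without overlap in 3 clones and higher in C43. Over the clones the difference was -0.24 ± 0.095 log2 units and did not pass (limma adjusted p = 0.0643), whereas within C1 Cxcl1 fell by 0.73 ± 0.102 (limma adjusted p = 0.00116). The difference of this change between clones did not pass (interaction adjusted p = 0.0681), but it did in 4 of 29 alternatives, the replicate block among them. Without clone C43 the change over the remaining clones was -0.36 (limma adjusted p = 0.0217).

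Ordered by group mean, Cxcl1 was highest in GFP-negative C11 (96.8 ± 5.65 TPM, SD, n = 2) and lowest in untreated WT cells (39.0 ± 2.54, n = 3). Of 9 neighbouring pairs in that order, 4 had overlapping libraries, among them the 3 lowest groups. The level differed between clones (limma F-test adjusted p = 0.000294).

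Cxcl2 (ENSMUSG00000058427), whose product uses the same receptor as Cxcl1, was an order less abundant. It measured 2.90, 5.13 and 3.76 TPM without dDAVP and 6.37, 5.96 and 9.97 TPM with it. The groups did not overlap, but the difference of 0.77 ± 0.241 log2 units did not pass (limma adjusted p = 0.0846).

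In the clones Cxcl2 was lower in GFP-positive cells throughout. The GFP-negative libraries measured 31.6 and 17.5 TPM in C1, 5.22 and 6.40 in C11, 7.67 and 7.10 in C43, and 11.5 and 4.20 in C50. The GFP-positive libraries measured 13.3 and 6.97 TPM in C1, 2.10 and 2.40 in C11, 2.64 and 4.02 in C43, and 1.57 and 3.69 in C50. No positive library reached the negative libraries of its own clone, and the ratio of mean TPM, negative over positive, was lowest in C43 at 2.22, followed by C1 (2.42), C11 (2.58) and C50 (2.99). Cxcl2 fell by 1.11 ± 0.201 log2 units over the clones (limma adjusted p = 0.000588) and did not pass within any single clone, where 2 libraries meet 2. The interaction with clone did not pass (limma adjusted p = 0.987). Its level differed between clones (limma F-test adjusted p = 0.00088), but not without C1 (0.714). Of the 50-base words of Cxcl2, 5.84% also occur in Cxcl3, which was at most 0.32 TPM in any library.

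Cxcl5 (ENSMUSG00000029371), another Cxcr2 ligand, was almost silent in untreated WT cells and depended most on the clone. It measured 0.60, 0.79 and 0.95 TPM without dDAVP and 4.18, 4.08 and 3.57 TPM with it, so that the groups did not overlap. The difference in mean log2(TPM + 1) was 1.48, with no test given since Cxcl5 had to differ.

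All clones received dDAVP, yet Cxcl5 differed widely between them. In C1 it measured 15.9 and 14.7 TPM in GFP-negative and 23.8 and 20.5 TPM in GFP-positive cells. In C11 it measured 2.70 and 2.23 against 2.66 and 2.95 TPM. In C43 it measured 0.40 and 0.81 against 0.79 and 0, and in C50 0.26 and 0.70 against 0.57 and 1.28 TPM. Clone C1 was thus above treated WT cells, C11 below them, and C43 and C50, at 0 to 1.28 TPM, around the untreated WT values. Since the C43 and C50 groups all averaged below 1 TPM, Cxcl5 passed the filter only through C1 and C11, and no test of the difference between clones is given. The difference between fractions was not called (0.19 ± 0.159 log2 units, limma adjusted p = 0.394). In C1 the positive libraries were above the negative ones without overlap, by 0.50 ± 0.307 log2 units (limma adjusted p = 0.426).

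Ppbp, the platelet basic protein gene and also a Cxcr2 ligand, starts 6894 bp beyond the end of Cxcl5. It measured 77.1 and 76.0 TPM in GFP-negative and 51.6 and 37.5 TPM in GFP-positive C1 cells. In the other clones it stayed between 6.38 and 15.98 TPM, beside the 14.2, 12.2 and 12.98 TPM of untreated WT cells. Both neighbours were therefore highest in C1, but between the fractions of C1 Ppbp fell (-0.79 ± 0.208 log2 units, limma adjusted p = 0.0436) while Cxcl5, higher by 0.50, was not called. The Ppbp call was lost with median-ratio scaling (0.0949) and with quantile normalization (0.131). With dDAVP Ppbp measured 10.8, 10.5 and 9.14 TPM in WT cells, below all untreated libraries and not called. Pf4, Cxcl3 and Cxcl15 reached at most 1.13, 0.32 and 0.75 TPM.

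**Figure D3:**
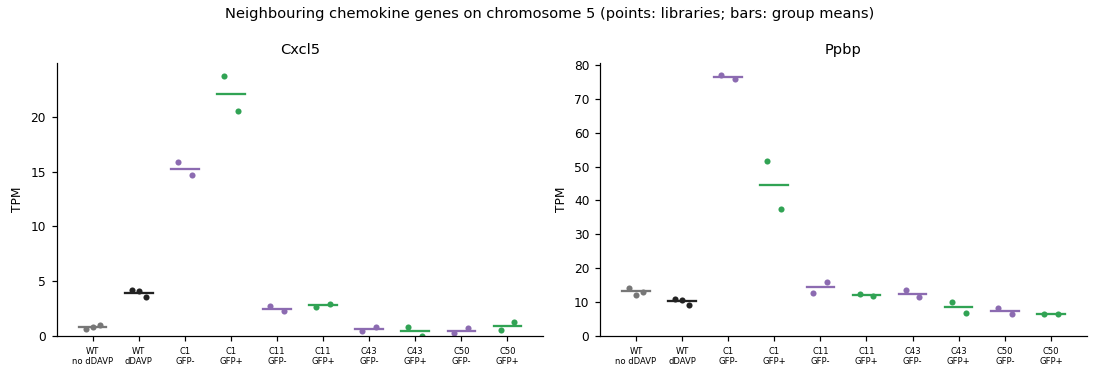
TPM of Cxcl5 and of its neighbour Ppbp in the 10 groups (linear axes from 0); points are libraries and bars group means. Both are highest in clone C1, where Cxcl5 is higher and Ppbp lower in GFP-positive than in GFP-negative cells.

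Ccl20 (ENSMUSG00000026166; chr1:83116766-83119167), which attracts Ccr6-bearing dendritic cells and lymphocytes, was high in 1 group only. WT cells had 1.31, 1.03 and 0.74 TPM without dDAVP and 4.88, 1.69 and 1.11 TPM with it. The treated values overlapped the untreated ones and the difference of 0.68 ± 0.402 log2 units did not pass (limma adjusted p = 0.287).

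GFP-negative C1 cells had 12.2 and 14.0 TPM of Ccl20, and GFP-positive C1 cells 0.30 and 0.81. In the other clones the negative libraries had 1.33 and 0.31 TPM in C11, 4.31 and 1.14 in C43, and 2.54 and 1.44 in C50. The positive libraries had 0.30 and 0.47 in C11, 0.65 and 0 in C43, and 0.41 and 0.88 in C50. All 8 positive libraries were below 1 TPM. They lay below the negative ones without overlap in C1, C43 and C50, while the ranges overlapped in C11. The difference in mean log2(TPM + 1) was -1.45 over the clones and -3.20 within C1, with no test given since Ccl20 had to differ.

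Cxcl10 (ENSMUSG00000034855; chr5:92346638-92348889, minus strand), the interferon-inducible T cell attractant, did not follow dDAVP in WT cells. It measured 17, 13.4 and 16.7 TPM without dDAVP and 18.7, 12.8 and 21.6 TPM with it. The groups overlapped and differed by 0.14 ± 0.193 log2 units (limma adjusted p = 0.643).

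Between the GFP fractions Cxcl10 depended on the clone. The GFP-negative libraries measured 23.8 and 20.7 TPM in C1, 20.9 and 24.3 in C11, 22.6 and 17.4 in C43, and 43.2 and 28.4 in C50. The GFP-positive libraries measured 21.0 and 22.5 TPM in C1, 11.1 and 6.66 in C11, 8.39 and 16.4 in C43, and 2.70 and 4.51 in C50. The fractions overlapped in C1 and were apart in the other 3 clones, most widely in C50, where the mean was 9.92 times higher in GFP-negative cells. Cxcl10 fell over the clones (-1.25 ± 0.325 log2 units, limma adjusted p = 0.0074), within C11 (-1.29 ± 0.328, 0.0349) and within C50 (-2.996 ± 0.328, 8.95e-05), the last not in the 4 libraries of that clone alone (0.0796). The C11 call was lost in 13 of 26 alternatives. Within C1 the difference was -0.03 (limma adjusted p = 0.998), with a sign that turned under both scalings. Without C50 the change over clones was -0.67 (limma adjusted p = 0.0262).

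The test of the difference between clones was called for Cxcl10 alone among the 7 members (interaction adjusted p = 0.0422), against 0.869% of all tested genes. That call was lost in 19 of 29 alternatives, where the adjusted p reached 0.379. Without the first GFP-negative C50 library, which stands apart and held the highest Cxcl10 value, the fall within C50 was -2.70 (limma adjusted p = 0.000618) and the interaction adjusted p was 0.0633. Art3 shares 3.59% of the 50-base words of Cxcl10 and was at most 0.66 TPM.

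Cxcl16 (ENSMUSG00000018920; chr11:70453983-70459984, minus strand), membrane-anchored and bound by Cxcr6, was the 1 member whose GFP-negative and GFP-positive libraries were separate over all clones together. WT cells had 166, 169 and 167 TPM without dDAVP and 143, 146 and 136 TPM with it. The treated libraries were all lower, but the difference of -0.24 ± 0.063 log2 units did not pass (limma adjusted p = 0.0597) and was -0.065 after median-ratio scaling.

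The GFP-negative libraries had 181 and 191 TPM of Cxcl16 in C1, 182 and 191 in C11, 158 and 153 in C43, and 146 and 182 in C50. The GFP-positive libraries had 125 and 120.3 TPM in C1, 139 and 138 in C11, 83.6 and 90.2 in C43, and 119.7 and 133 in C50. No positive library reached any of the 8 negative libraries, whose lowest value was 146 TPM against a highest positive value of 139. Such a separation of all 16 libraries was met by 4.72% of tested genes. Cxcl16 fell by 0.56 ± 0.072 log2 units over the clones (limma adjusted p = 3.48e-05). It was the 1 member called within each clone, by -0.60 ± 0.111 in C1 (limma adjusted p = 0.0075), -0.43 in C11 (0.0386), -0.83 in C43 (0.000535) and -0.37 in C50 (0.0309). Of 26 alternative settings, the C11 call of Cxcl16 was lost in 16 (limma adjusted p up to 0.228), among them both scalings (0.141 after median-ratio scaling and 0.0572 after quantile normalization). The C50 call was lost in 6, the C1 call in 3 and the C43 call in 0 of the 26. The interaction with clone did not pass (limma adjusted p = 0.388).

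Apart from Ccl20, which had to differ, 3 of the other 6 tested members (Cxcl2, Cxcl10 and Cxcl16) were called and had a lower GFP-positive mean in each of the 4 clones, a combination that 21.4% of tested genes met. The positive libraries of Cxcl2 and Cxcl16 lay below the negative ones without overlap in each clone, as did those of 12.2% of tested genes. Within single clones the members called lower, Ccl20 left out, numbered 2 in C1 (Cxcl1, Cxcl16), 2 in C11 (Cxcl10, Cxcl16), 1 in C43 (Cxcl16) and 2 in C50 (Cxcl10, Cxcl16). The C11 count was 0 after median-ratio scaling and 0 after quantile normalization. Among all tested genes the share called lower was 4.91% for C1, 5.7% for C11, 12% for C43 and 13.8% for C50. Zmynd15, which shares 16.9% of the 50-base words of Cxcl16, was at most 2.15 TPM. The Cxcl16 level also differed between clones (limma F-test adjusted p = 0.0137), a call lost without C1, C11 or C43 (up to 0.398). With Cxcl1 and Cxcl2 this makes 3 of the 6 tested members other than Cxcl5 whose level differed between clones, against 28% of all tested genes.

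**Figure D4:**
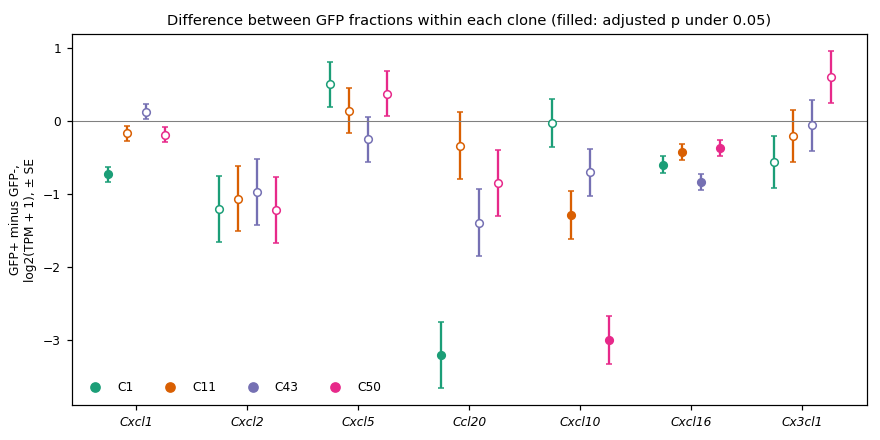
GFP-positive minus GFP-negative difference in log2(TPM + 1), with its SE, for the 7 tested chemokines in each clone; filled points passed an adjusted p under 0.05. Cxcl16 is filled and below 0 in all 4 clones, Cxcl10 runs from near 0 in C1 to -2.996 in C50, and Ccl20, which had to differ through the filter, is lowest in C1.

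Cx3cl1 (ENSMUSG00000031778; chr8:94772009-94782427), the other membrane-anchored member, had the narrowest range of group means, though 1 library lay far below the rest. It measured 56.0, 53.8 and 53.1 TPM without dDAVP and 54.1, 53.9 and 50.0 TPM with it. These overlapping groups differed by -0.04 ± 0.074 log2 units (limma adjusted p = 0.708), with a sign that turned under both scalings.

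The GFP-negative libraries had 59.3 and 71.6 TPM of Cx3cl1 in C1, 50.7 and 58.4 in C11, 48.4 and 49.4 in C43, and 19.5 and 59.4 in C50. The GFP-positive libraries had 43.1 and 44.2 TPM in C1, 43.5 and 51.1 in C11, 49.2 and 44.5 in C43, and 54.8 and 49.8 in C50. The single low value belongs to the C50 library that stands apart. The change over clones was -0.06 ± 0.193 log2 units (limma adjusted p = 0.853), but without that library it was -0.26 and called (0.0147). Within C50 it was 0.60 with and -0.18 without that library. Within C1 the groups did not overlap, and the difference of -0.57 did not pass (limma adjusted p = 0.441); it did without that library, with an adjusted p of 0.00999.

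Cxcl12 (ENSMUSG00000061353) and Ccl2 (ENSMUSG00000035385) gave no basis for a comparison. Cxcl12 was listed at 0 in the 10 libraries with fewer genes detected, both GFP-negative C1 libraries among them, and in no other library. It was highest at 0.51 TPM in 1 GFP-negative C43 library, which is among the 12 with more genes detected. Ccl2 was highest at 0.26 TPM in 1 GFP-positive C43 library. For both, the libraries of every pair of neighbouring groups overlapped.

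The receptors for these ligands were at trace levels. Cxcr2, Cxcr3, Cxcr4, Cxcr6, Ccr2 and Cx3cr1 reached at most 0.28, 0.11, 0.33, 0.47, 0.14 and 0.21 TPM, and Ccr6 reached 1.70. Of 23 listed receptors only Ackr3 passed the filter, an atypical receptor that binds and removes Cxcl12. It measured 15.8, 13.03 and 13.7 TPM in WT cells without dDAVP and 6.79, 6.93 and 6.62 TPM with it, a fall of 0.96 ± 0.114 log2 units (limma adjusted p = 0.0053). In GFP-positive cells of the clones, however, Ackr3 was 0.67 ± 0.157 higher (limma adjusted p = 0.00377), and within single clones it was called in C1 alone. There it was 1.26 higher (limma adjusted p = 0.0128), from 0.46 and 0.85 TPM in GFP-negative to 2.13 and 3.97 in GFP-positive cells, against differences of 0.18 for C11, 0.59 for C43 and 0.66 for C50. The interaction with clone did not pass (limma adjusted p = 0.436).

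Among 29 other chemokine ligands, 6 passed the filter: Ppbp, Ccl5, Ccl17, Ccl25, Ccl27a and Ccl28. With dDAVP limma called none, with 3 under an unadjusted p of 0.05 (Ppbp, Ccl27a and Ccl28). Between the fractions 4 of 6 fell and 1 rose, with a median of -0.41, where 23.2% of all tested genes fell and 12.1% rose. After median-ratio scaling 2 were called lower and after quantile normalization 1. Ccl5, a T cell attractant, changed by -0.75, Ccl25, a ligand of Ccr9, by -0.68, Ppbp by -0.42 and Ccl27a by -0.40 (limma adjusted p from 0.00141 to 0.0357). Ccl5 and Ccl27a were not called after either scaling, nor Ppbp after quantile normalization (0.0506). Ccl28, a mucosal epithelial chemokine, rose by 0.91 ± 0.202 (limma adjusted p = 0.00278), and within single clones it was called in C50 alone. There it was 1.83 higher (limma adjusted p = 0.0018), from 1.23 TPM in the library that stands apart and 3.30 in the other GFP-negative library to 9.02 and 11.2 TPM in GFP-positive cells. The differences were 0.58 for C1, 0.73 for C11 and 0.49 for C43, and the interaction did not pass (limma adjusted p = 0.362).

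The cytokines that induce these chemokines were low. Tnf reached at most 2.42 TPM, and Il1a, Il1b, Il6, Il17a and Ifng at most 0.45, 0.49, 0.34, 0.15 and 0.35. Of 22 listed cytokines and receptors 15 were tested, and in GFP-positive cells 2 passed as higher and 2 as lower, against 12.1% and 23.2% of all tested genes. Tlr4, the endotoxin receptor, was 0.47 higher and Il1rap, a subunit of the interleukin-1 receptor, 0.42 higher, whereas Ifngr1, an interferon-gamma receptor chain, changed by -0.31 and Tnfrsf1a, a TNF receptor, by -0.27. The Tnfrsf1a call was lost after both scalings. With dDAVP 1 of 15 was called, near the 8.88% of all tested genes: the interleukin-17 receptor Il17ra at -0.50, which was not called after either scaling.

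All 14 listed NF-kB subunits, kinases and inhibitors were tested. With dDAVP only Nfkbia, the inhibitor that NF-kB itself induces, was called, 0.33 ± 0.06 log2 units higher (limma adjusted p = 0.0208; 0.0501 after quantile normalization). That is 1 of 14, where 8.88% of all tested genes were called. In GFP-positive cells 5 of 14 fell and none rose, although 2 were called higher after either scaling. Over all tested genes 35.3% were called, 12.1% higher and 23.2% lower. The share of NF-kB genes called in either direction was near that background, while all 5 calls as deposited were lower. The feedback inhibitor Tnfaip3 changed by -1.73 ± 0.199 and the subunit Relb by -1.70 ± 0.07 (limma adjusted p = 1.38e-05 and 8.86e-10). Nfkbie, Nfkb2 and Nfkbib changed by -0.81, -0.59 and -0.34. Relb measured 31.5 and 28.8 TPM in GFP-negative against 8.30 and 8.43 in GFP-positive C1 cells, and 15.2 and 15.03 against 4.44 and 3.56 in C50. It was called lower in each of the 4 clones. Nfkbia fell within C1 alone (-0.42, limma adjusted p = 0.0346; 0.363 after median-ratio scaling), the clone in which Cxcl1 was called lower; a difference of this change between clones passed for no listed NF-kB gene in limma, with 3 under an unadjusted p of 0.05 (Nfkbia, Nfkbie and Tnfaip3).

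Of the interferon signalling factors, in GFP-positive cells Irf9, a subunit of the interferon-activated transcription factor complex, was 0.57 higher and Irf1, an interferon-induced transcription factor, 0.53 higher (limma adjusted p = 0.000222 and 0.000444), while 12.1% of all tested genes were called higher. None of the 10 tested factors was called lower, against 23.2% of all tested genes. With dDAVP limma called none, with 4 under an unadjusted p of 0.05 (Stat2, Jak1, Jak2 and Tyk2). Within C50, where Cxcl10 fell most, Irf1 and Irf9 were 0.81 and 0.80 higher (limma adjusted p = 0.0032 and 0.00424). In C43 2 of the 10 factors were also called higher, and in C1 and C11 none was. The interaction with clone passed for none of the 10.

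Among 9 proteases and inhibitors that act on chemokines, 8 were tested in the clones. Adam10 and Adam17, which release Cxcl16 and Cx3cl1, were not called. Of the tissue inhibitors of metalloproteinases on the list, Timp1 fell in GFP-positive cells by -1.995 ± 0.124 and Timp2 by -1.39 ± 0.151 (limma adjusted p = 3.98e-08 and 8.27e-06). Timp3, a natural inhibitor of Adam17, averaged 15.2 TPM in GFP-negative and 0.94 TPM in GFP-positive libraries. It passed the filter on low values only through the GFP-negative group, so it had to differ and no test is given for it. In C1 Timp3 was at most 1.08 TPM in both fractions, whereas in C11 it measured 26.9 and 26.8 TPM in GFP-negative and 0.96 and 1.12 TPM in GFP-positive cells. With dDAVP Timp2 was lower (-0.59, limma adjusted p = 0.0135). Dpp4, which trims Cxcl10 and Cxcl12, lay between 9.98 and 19.4 TPM in C1 and C43 and at or below 0.72 TPM in C11 and C50, and passed the filter only through the first pair.

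Of 8 macrophage and leukocyte markers 2 were tested between the fractions and 1 was called lower, where 23.2% of all tested genes were. The summed macrophage and leukocyte markers were 17.4 to 31.6 TPM in GFP-negative and 11.9 to 21.8 TPM in GFP-positive libraries. The called marker was Csf1r (-0.57, limma adjusted p = 0.00111), whereas Itgam was at most 0.04 TPM in any clone library and 0 in all WT libraries. The summed ranges of the fractions overlapped. Of 6 intercalated cell markers and 4 proximal tubule markers, only 1 each passed the filter and was tested. Both were called higher in GFP-positive cells, Atp6v1b1 of intercalated cells by 0.81 and Lrp2 of the proximal tubule by 0.56 (limma adjusted p = 0.00899 and 0.00525). Among all tested genes 12.1% were called higher. Vwf of endothelium was at most 3.56 TPM in any clone library and passed the filter on low values only through the GFP-positive group. The part of these markers in the chemokine differences was not tested.

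For each tested member the 3 genes with the most similar pattern were taken from about 9630 genes, by Pearson's r of log2(TPM + 1) over the 22 libraries. These libraries share groups, so r describes the pattern and carries no test. Cxcl1 was closest to Nfkbia (r = 0.848), then Ramp1 and Akr1c12. Ccl20 was closest to Areg, an epidermal growth factor receptor ligand (r = 0.869), then Nfkbie (0.843) and Entpd2. Areg measured 40.1 ± 1.22 TPM (SD, n = 2) in GFP-negative C1 cells and between 9.39 and 19.5 TPM as a mean in the other groups. Cxcl16 was closest to Afap1l2 (r = 0.958), then Trmt61a and Entr1. Cxcl2 was closest to Mrpl3 (0.882), Nprl2 and Cfl1, Cxcl5 to Dglucy (0.902), Rab1b and Paics, Cxcl10 to Csnk2b (0.888), Hat1 and Calm2, and Cx3cl1 to Osbpl3 (0.914), Rbsn (0.906) and Fbf1 (0.903). The 3 values for Cx3cl1 rest in part on the C50 library that stands apart: over the other 21 libraries r was 0.695, 0.587 and 0.708. For the other members r without it was 0.803 or more. No member was among the nearest genes of another.

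**Figure D5:**
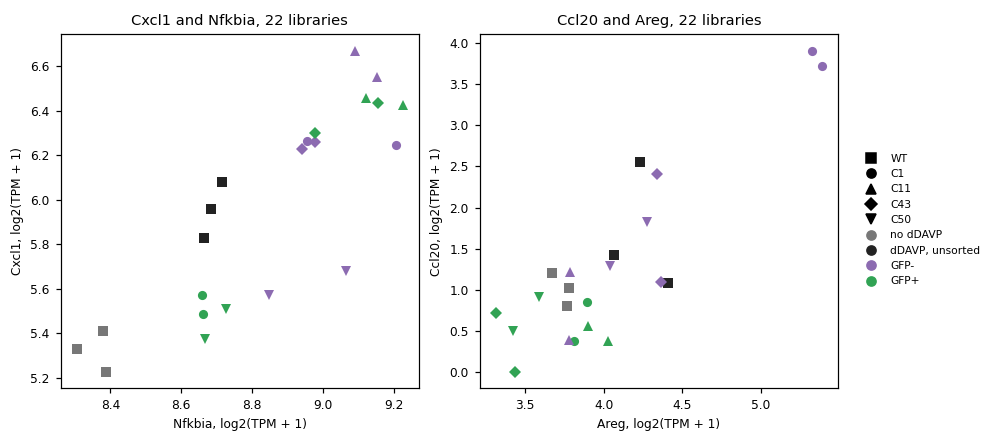
Cxcl1 against Nfkbia and Ccl20 against Areg, each in log2(TPM + 1), over the 22 libraries; shape marks WT cells or the clone and colour the treatment or fraction. By group mean, Cxcl1 and Nfkbia are both lowest in untreated WT cells, where the Cxcl1 libraries overlap those of GFP-positive C50. The high Ccl20 and Areg values are those of the GFP-negative C1 libraries.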

How the data were processed

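RNA of 22 mpkCCD libraries was analysed. SMART-Seq HT cDNA from 1 ng of total RNA (11 PCR cycles) was, per the labels' protocols, prepared with Nextera XT and sequenced as paired-end reads of 50 bp. STAR and RSEM are named in the submitters' processing notes; the genome build and annotation are not given in the sources used here. The authors deposited TPM per gene and library, and a further 16 columns of the table were not used. The 980 lines that share 1 of 79 symbols were summed, leaving 54514 entries.

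Tests used limma 3.58.1 (R 4.3.3) on log2(TPM + 1), with a mean-variance trend, two-sided, for genes averaging 1 TPM or more, and were tested on simulated data. The dDAVP fit used 6 WT libraries. The GFP fit used 16 clone libraries with the clone as covariate; changes within clones, the interaction and clone differences came from the same 16. The number of libraries, not a known depth, sets the precision. Alternatives were another pseudocount, other filters, 2 scalings, other variance models, a replicate block, subsets by genes detected, clone means, and leaving out each library or clone.

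The members and the 9 other gene lists were chosen with earlier results of these data known. Listed genes were named by rule, up to 4 called per list and comparison averaging 5 TPM or more and with the largest change. Called genes beyond that rule, and the clones shown as examples, were chosen after their values were seen, as were the correlations and level ratios without single libraries. Gene positions are from GENCODE on GRCm38. The result for 1 listed gene is not reported here.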

Additional observations from a re-analysis of the deposited data

Results flagged for a closer look

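Cxcl10 was the 1 member whose difference between GFP-positive and GFP-negative cells itself differed between clones, by limma's F-test of the interaction (adjusted p = 0.0422). The change ran from -0.03 log2 units in C1 over -0.70 in C43 and -1.29 in C11 to -2.996 in C50, with 2 libraries per fraction. The call held in 10 of 29 alternatives, over all of which the adjusted p ran from 0.00337 to 0.379.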

How the results depend on the processing

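The counts in this part include Cxcl5 (with dDAVP and between clones) and Ccl20 (between fractions), which had to differ through the filter on low values. The number of members called with dDAVP, 2 with Cxcl5, was 1 with a filter at a mean of 5 TPM, which leaves Cxcl5 out, 0 with the replicate block and 0 in the libraries with more genes detected, and 1 to 3 when single libraries were left out. The 4 members called between fractions, Ccl20 included, became 0 in the libraries with fewer genes detected and 2 with clone means as replicates. The 1 interaction call became 0 with no filter, with no trend, with the genes-detected covariate, without clone C1 and without clone C11, 2 with the replicate block, and 0 to 5 without single libraries, with 5 without the second GFP-negative C50 library. The 4 calls between clones became 2 without clone C1. The 8 calls within single clones became 5 with no filter and ranged from 5 to 12 without single libraries. Where a library was left out of a pair, the remaining one was assumed to vary like the other groups.

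Same-numbered libraries correlated in their deviations from -0.212 to -0.0305 (WT) and from 0.00787 to 0.211 (clones), so the numbers were not taken to pair them. With the replicate block the adjusted p for dDAVP was 0.0672 for Cxcl1, and 122 genes in place of 1198 were called; the Cxcl1 interaction was called (0.0495). The count of genes called with dDAVP was otherwise 442 with no filter, 757 with median-ratio scaling, 691 with no trend, 2694 with the covariate and 101 in the libraries with more genes detected. Between fractions it was 4626 as reported, 250 in the libraries with fewer genes detected and 2406 with clone means. With no filter 609, 607, 1346 and 2291 genes were called in C1, C11, C43 and C50 in place of 947, 1041, 2134 and 3486, and with the 4 libraries of a clone alone 2029 in C11 and 22 in C50. The interaction count of 114 was 237 after quantile normalization, 13 without C1 and 39 without C11, and the count between clones of 3669 was 975 without C1.

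The directions that turned all belonged to changes that were not called as reported. For Cx3cl1 the dDAVP change was 0.13 with median-ratio scaling and 0.10 with quantile normalization, its change over clones was 0.021, 0.010, 0.16 and 0.11 with median-ratio scaling, quantile normalization, fewer genes detected and without C1, and within C43 it was 0.12 and 0.11 with the scalings. For Cxcl10 within C1 it was 0.046 and 0.069 with the scalings. Leaving out single libraries gave ranges across 0: for Cx3cl1 -0.26 to 0.024 over clones, -0.13 to 0.00987 in C43 and -0.18 to 1.38 in C50, for Cxcl10 -0.13 to 0.069 in C1 and -0.012 to 0.34 with dDAVP, for Cxcl5 -0.67 to 0.17 in C43 and for Ccl20 -0.75 to 0.078 in C11. The 1.38 for Cx3cl1, without the second GFP-negative C50 library, was called (limma adjusted p = 4.28e-05). The cause was not tested for any of these. TPM keep no depth, so no detection limit could be derived for Cxcl12 and Ccl2. Whether depth limited them was not tested.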

Other observations

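Of 7 listed genes that answer to or carry the glucocorticoid signal, 5 were called higher in GFP-positive cells and none lower, with dexamethasone in the medium of every group, where 12.1% of all tested genes were called higher. Nr3c1 and Dusp1 were not called. Sgk1, the kinase that raises sodium transport, rose by 1.08 ± 0.101 log2 units, Zbtb16 by 1.01, Fkbp5 by 0.81, Per1 by 0.79 and Tsc22d3 by 0.79 (limma adjusted p from 2.03e-06 to 0.0131). The median of the list was 0.79 against -0.063 for all tested genes. Sgk1 measured 221 and 265 TPM in GFP-negative against 404 and 385 TPM in GFP-positive C1 cells, and 185 and 259 against 598 and 646 in C50. With dDAVP in WT cells 1 of the 7 was called, the phosphatase gene Dusp1, which fell by 0.66 log2 units (limma adjusted p = 0.0013), where 8.88% of all tested genes were called.

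Of 7 factors that set chemokine mRNA stability, Zfp36, the AU-rich element binding protein tristetraprolin, rose by 0.88 ± 0.125 and Zc3h12a, the endonuclease Regnase-1, by 0.81 ± 0.157 in GFP-positive cells, while Elavl1, an mRNA-stabilising protein, changed by -0.25 (limma adjusted p = 8.16e-05, 0.00106 and 0.0186). These 3 calls among 7 factors compare with 35.3% of all tested genes. Zc3h12a measured 8.63 and 10.3 TPM in GFP-negative and 18.4 and 25.3 TPM in GFP-positive C43 cells. With dDAVP Hnrnpd was the 1 factor called (-0.51, limma adjusted p = 0.0358), and it was not called after either scaling; over all tested genes 8.88% were called with dDAVP. Of 10 syndecans and heparan sulfate enzymes, which hold chemokines at the cell surface, 8 were tested. Hs2st1 was called lower between fractions (-0.34, limma adjusted p = 0.0317) and Ndst1 lower with dDAVP (-0.80, limma adjusted p = 0.0332), 1 of 8 each time, against 35.3% and 8.88% of all tested genes.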
